A study of Mus musculus with 6 samples.

Results

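Binding of the bile acid receptor FXR was examined at Bcl6 and the genes of its corepressors in mouse liver. The 7 genes were Bcl6, Bcl6b, Bcor, Ncor1, Hdac3, Tbl1x and Tbl1xr1, called the members, and every FXR peak that the authors' annotation assigned to 1 of them was taken. This gave 27 of the 20040 peaks in control liver and 16 of the 12495 peaks in liver lacking BCL6. Livers were from male mice on the C57BL/6 background. Controls were Bcl6 fl/fl mice, in which both Bcl6 alleles are floxed, written WT here. Bcl6 LKO mice, written LKO, carried the same floxed alleles and the Albumin-Cre transgene, which drives the deletion in hepatocytes, while chromatin was taken from whole liver. The age of the mice was not given in the sources used here. FXR ChIP was sequenced in 2 libraries of either genotype, beside 1 input, which is chromatin without immunoprecipitation. Nothing in the labels stated that the replicates were separate mice.

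BCL6 is a zinc finger repressor that binds DNA and silences genes by recruiting corepressor complexes. BCOR docks on its BTB domain, as does NCOR1, which carries the histone deacetylase HDAC3 together with TBL1X and TBL1XR1, a pair of related WD40 proteins. FXR binds DNA with RXR, chiefly at inverted repeats of a hexamer half-site, and in hepatocytes it controls genes of bile acid synthesis and transport.

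The peaks that the results turn on are shown first, as the plus strand of mm10 read from the RefSeq assembly GRCm38.p6, which has the same coordinates. The FXR motif searched was AGGTCANTGACCT, called IR1, an inverted repeat of the half-site AGGTCA around 1 free base, on either strand. At most 2 mismatches in its 12 scored bases were allowed within 100 bp of the peak centre. Capitals in the whole peaks mark the closest IR1 match, and none are set in the Bcl6 peak, whose closest match had 6 mismatches. The first is the peak assigned to Bcl6 itself, at chr16:23994118-23994328. The second is the strongest peak upstream of Bcl6, at chr16:24090057-24090267, which the authors' annotation gave to the non-coding gene Gm46545. The third is the strongest Bcor peak, at chrX:11759033-11759243. The fourth and the fifth are the Tbl1xr1 peaks in intron 1, at chr3:22091833-22092043, and upstream of the start, at chr3:22075084-22075294.
Bcl6 peak: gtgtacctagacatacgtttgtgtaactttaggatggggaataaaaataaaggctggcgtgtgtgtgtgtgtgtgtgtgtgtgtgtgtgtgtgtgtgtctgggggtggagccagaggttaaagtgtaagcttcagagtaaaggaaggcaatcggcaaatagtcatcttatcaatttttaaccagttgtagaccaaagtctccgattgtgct
Upstream of Bcl6: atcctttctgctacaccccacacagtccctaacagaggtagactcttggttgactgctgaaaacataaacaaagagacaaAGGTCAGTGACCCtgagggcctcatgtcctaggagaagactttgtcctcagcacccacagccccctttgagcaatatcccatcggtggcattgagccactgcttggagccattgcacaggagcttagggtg
Bcor peak: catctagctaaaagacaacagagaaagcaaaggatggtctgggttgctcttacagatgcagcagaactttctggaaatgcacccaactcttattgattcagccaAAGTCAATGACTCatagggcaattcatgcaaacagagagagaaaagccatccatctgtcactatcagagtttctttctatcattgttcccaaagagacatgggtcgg
Tbl1xr1 intron 1 peak: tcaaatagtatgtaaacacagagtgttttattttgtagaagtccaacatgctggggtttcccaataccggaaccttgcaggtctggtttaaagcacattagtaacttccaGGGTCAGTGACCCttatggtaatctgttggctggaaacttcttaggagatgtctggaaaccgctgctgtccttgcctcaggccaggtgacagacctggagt
Tbl1xr1 upstream peak: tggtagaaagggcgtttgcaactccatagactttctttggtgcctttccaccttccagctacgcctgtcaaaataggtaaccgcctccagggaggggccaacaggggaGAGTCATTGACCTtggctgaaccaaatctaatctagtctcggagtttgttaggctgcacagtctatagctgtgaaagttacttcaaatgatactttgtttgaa

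The Bcl6 peak holds a run of 20 GT repeats, and 26.5% of its bases are repeat-masked. The intron 1 peak of Tbl1xr1 lies in an RLTR23 element, a retroviral long terminal repeat, by the authors' annotation. The best IR1 matches are aligned next, with matching bases in capitals and the free base and mismatches in lower case. The first 5 are those of the members with at most 2 mismatches, and the others are shown for comparison.
Bcor, chrX:12079807-12079819: cGGgCAcTGACCT
Tbl1x, chrX:77510943-77510955: AGGTCAcTGgCCg
Tbl1xr1, chr3:21835625-21835637: AGagCAaTGACCT
Tbl1xr1, chr3:22075192-22075204: gaGTCAtTGACCT
Tbl1xr1, chr3:22091943-22091955: gGGTCAgTGACCc
Strongest Bcor peak, chrX:11759137-11759149: AaGTCAaTGACtc
Upstream of Bcl6, chr16:24090137-24090149: AGGTCAgTGACCc
Bcl6 peak, chr16:23994232-23994244: AGGTtAaaGtgta

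The value of a peak in a library is the authors' regularized log2 tag count, fitted jointly over the 3 libraries of a genotype. Its pooled score is the tags of both ChIP libraries together, scaled to a total of 10000000, and has no replicate spread. The log2 scales of the genotypes are not common, and values are set across them only as a description. Libraries differed in depth, since WT replicate 2 held 2883717 tags and the other ChIP libraries 19022618 to 22637613. At the member peaks the estimated tags were 2.60 to 56.4 in WT replicate 2 and 14.5 to 208 in the other 3 ChIP libraries, so the values of WT replicate 2 carry the most counting error. WT replicate 2 had the higher WT value at 24 of 27 member peaks, and at 16965 of the 20040 peaks of the WT list. The hepatocyte FXR targets Nr0b2, Abcb11, Slc51b and Fgfr4 were used to check the tissue, and 4 of 4 had a WT peak and 3 of 4 an LKO peak. Of 5 markers of other liver cells (Cd68, Clec4f, Stab2, Krt19 and Lrat), Stab2 alone had peaks, 3 in WT and none in LKO.

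Of the 7 genes, 5 had a peak in WT and 4 in LKO, where 34.4% and 26.3% of all protein-coding genes had one. Tbl1xr1 had 12 WT and 9 LKO peaks, Bcor 10 and 5, Tbl1x 3 and 1, Bcl6 1 and 1, and Bcl6b 1 and 0. Ncor1 and Hdac3 had none in either list. Bcor was 1 of 121 genes with at least 10 WT peaks, and Tbl1xr1 1 of 62 with at least 12, among the 9654 genes with a peak in either list. Over 100 kb from the assigned start lay 11 of 27 member peaks in WT (40.7%), against 9.71% of the list. In LKO these were 7 of 16 (43.8%) against 9.58%. All of them belonged to Bcor or Tbl1xr1.

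**Figure D1:**
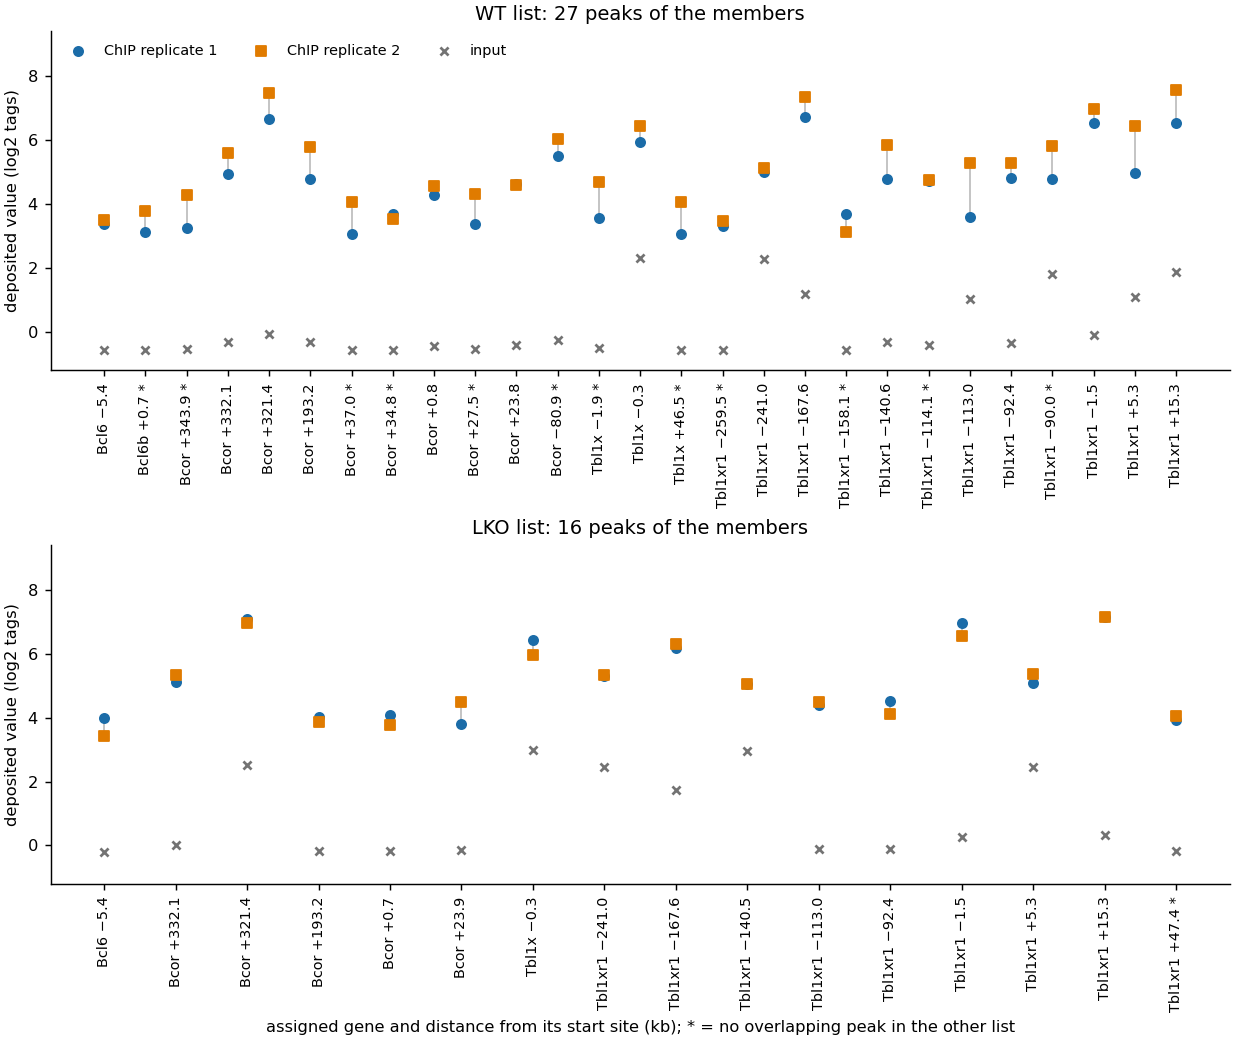
Deposited log2 tag value (vertical axis) of each peak assigned to a member (horizontal axis, by gene and distance from its assigned start in kb), for the WT list above and the LKO list below. Circles and squares are the 2 ChIP libraries, crosses the input, and an asterisk marks a peak with no overlapping peak in the other list. The 27 WT peaks reach a mean of 7.06 at Bcor and the 16 LKO peaks 7.14 at Tbl1xr1, while the Bcl6 peak is among the weakest in both.

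Bcl6 was represented by 1 weak peak that was present in both genotypes. It lay 5.37 kb upstream of the start, outside any exon, within the long non-coding gene Gm31527 by RefSeq. In WT its values were 3.36 and 3.48, with an input of -0.57 and a pooled score of 14.2. In LKO the peak at chr16:23994169-23994373 had 3.99 and 3.44, with an input of -0.21 and a score of 9.79. Its mean ranked at percentile 7.42 of the WT list and 2.69 of the LKO list. No peak of either list had its centre inside the Bcl6 gene. The loxP sites lie near exons 5 and 6 by the methods of the study, and exon 6 is 22.6 kb from the WT peak, so the peak lists cannot check the deletion. By counts alone Bcl6 was an ordinary gene, since 1967 of 9653 other genes also had 1 WT, 1 LKO and 1 shared peak, the first by symbol being 0610009B22Rik, 0610009L18Rik and 0610030E20Rik.

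A larger group of peaks lay upstream of Bcl6 but carried another gene's name. These peaks are no members by the rule, and they were picked out after their values were seen. Taking the stretch of genome nearer to the RefSeq start of Bcl6 than to that of any other coding gene, which spans 231 kb, there were 9 WT and 5 LKO peaks. All lay upstream of the gene, from 5.36 to 172 kb in WT and from 5.41 to 101 kb in LKO, and all but the Bcl6 peak were assigned to Gm46545. That is 38.9 WT and 21.6 LKO peaks per Mb, against 7.81 and 4.87 over the stretches of 21447 coding genes. The strongest, 101 kb upstream, had values of 7.31 and 8.11 in WT and ranked at percentile 98.6. In LKO it had 6.96 and 6.95 and ranked at percentile 95.4. Its IR1 match had 1 mismatch, fewer than in any of the member peaks, and lay 19 bp from the WT centre. The peak 55.1 kb upstream had 6.01 and 5.98 in WT and 5.39 and 5.01 in LKO.

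Bcl6b, the closest paralog of Bcl6, had 1 peak, found in WT alone. It lay in coding exon 2 at chr11:70228984-70229194, 709 bp inside the gene. Its values were 3.12 and 3.78 with an input of -0.57 and a score of 11.4, and it ranked at percentile 8.43 of the WT list. The nearest LKO peak was 14.4 kb away and assigned to Slc16a11. An estimated 17.2 tags lay under it in WT replicate 1 and 4.12 in the shallower replicate 2.

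Bcor, the BCL6 corepressor, had 10 WT peaks on chromosome X. Of these, 5 were also peaks in LKO. The strongest lay 321 kb beyond the assigned start, past the 3' end of the gene, at chrX:11759033-11759243. Its values were 6.65 and 7.47 in WT, with a score of 121.9, and 7.08 and 6.97 in LKO, with a score of 77.9. It ranked at percentiles 96.0 and 95.8. By the relative levels described further on, it was at 1.64 and 1.93 in WT and 2.04 and 2.12 in LKO. Its LKO input of 2.52, an estimated 2.35 tags, was above the 95th percentile of input in that list (2.49). The Bcor peak nearest to an assigned start, at chrX:12079692-12079902, lay 756 bp past it and had 4.29 and 4.56 in WT. That start is internal, since the peak lay 80.7 kb inside the gene from the RefSeq gene start. The LKO counterpart of the peak, 725 bp past the internal start in a 5' UTR, had 4.07 and 3.78. The strongest member peak found in WT alone was also at Bcor, at chrX:12241135-12241345. It lay 80.9 kb upstream of its assigned start and outside the gene. Its values were 5.50 and 6.02, its score was 52.5, and it ranked at percentile 82.9, with the nearest LKO peak 81.3 kb away. The other 4 Bcor peaks found in WT alone were weak, at percentiles 12.3 to 21.8.

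Tbl1x, which encodes a WD40 subunit of the NCoR complex, had 3 WT peaks and 1 LKO peak. The shared peak was at the promoter, 0.27 kb before the assigned start, at chrX:77510852-77511062. Its values were 5.94 and 6.43 in WT and 6.42 and 5.95 in LKO, with scores of 69.8 and 43.7. Its input was 2.30 in WT and 2.999 in LKO, above the 95th percentile of input in each list (1.85 and 2.49). These inputs were an estimated 3.57 and 3.27 tags, and the part of the input in this peak was not tested. The other 2 Tbl1x peaks, 1.89 kb upstream of the assigned start and 46.5 kb past it, were found in WT alone at percentiles 31.6 and 12.3. By the RefSeq gene start, the first of these lay 0.216 kb upstream and the shared peak 1.41 kb inside the gene.

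Tbl1xr1, the autosomal paralog of Tbl1x, had the most peaks of the 7 genes. Of the 12 WT peaks 10 lay outside the gene, all upstream, and the other 2 were in intron 1. The peak 15.3 kb from the start, at chr3:22091833-22092043, had 6.52 and 7.56 in WT, with a score of 113.2. In LKO it had 7.15 and 7.13 with a score of 84.2, and was the strongest member peak of that list at percentile 96.4. Its WT input of 1.86, an estimated 2.62 tags, was just above the 95th percentile, and its LKO input of 0.32 was not. The peak 168 kb upstream, at chr3:21908993-21909203, had 6.71 and 7.34 in WT, with the higher score of 128.7, and 6.18 and 6.31 in LKO. The means of these peaks in WT, 7.04 and 7.03, differed by less than the spread between the libraries. The peak 1.46 kb upstream had 6.54 and 6.98 in WT and 6.95 and 6.55 in LKO. Further from the start, the region 89.98 to 259 kb upstream held 4 WT peaks with no LKO counterpart, whose means ran from 3.39 to 5.30, and 4 weaker shared peaks beside the one at 168 kb. The shared peak 241 kb upstream had 4.99 and 5.12 in WT and 5.30 and 5.32 in LKO. Its WT input of 2.28, an estimated 3.51 tags, was above the 95th percentile. That 92.4 kb upstream had 4.81 and 5.29 in WT and 4.52 and 4.12 in LKO. The 1 member peak found in LKO alone was in intron 1 of Tbl1xr1, 47.4 kb from the start, at chr3:22123949-22124153. Its values were 3.94 and 4.05, and it ranked at percentile 14.2 with an estimated 19.2 and 22.1 tags.

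By base composition the member peaks lay near the rest, with a median GC content of 47.4% in WT and 48.0% in LKO, against 49.8% and 50.7% of the lists. The promoter peak of Tbl1x was the most GC-rich, at 75.8% in WT, and the Bcor peak near an internal start had 68.7%. The others ran from 37.0% to 60.7%. By the authors' annotation 17 of 27 WT member peaks (63.0%) were intergenic and 7 intronic (25.9%), against 35.3% and 46.5% of the WT list. In LKO these were 10 (62.5%) and 3 (18.8%) of 16, against 34.3% and 47.4%.

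**Figure D2:**
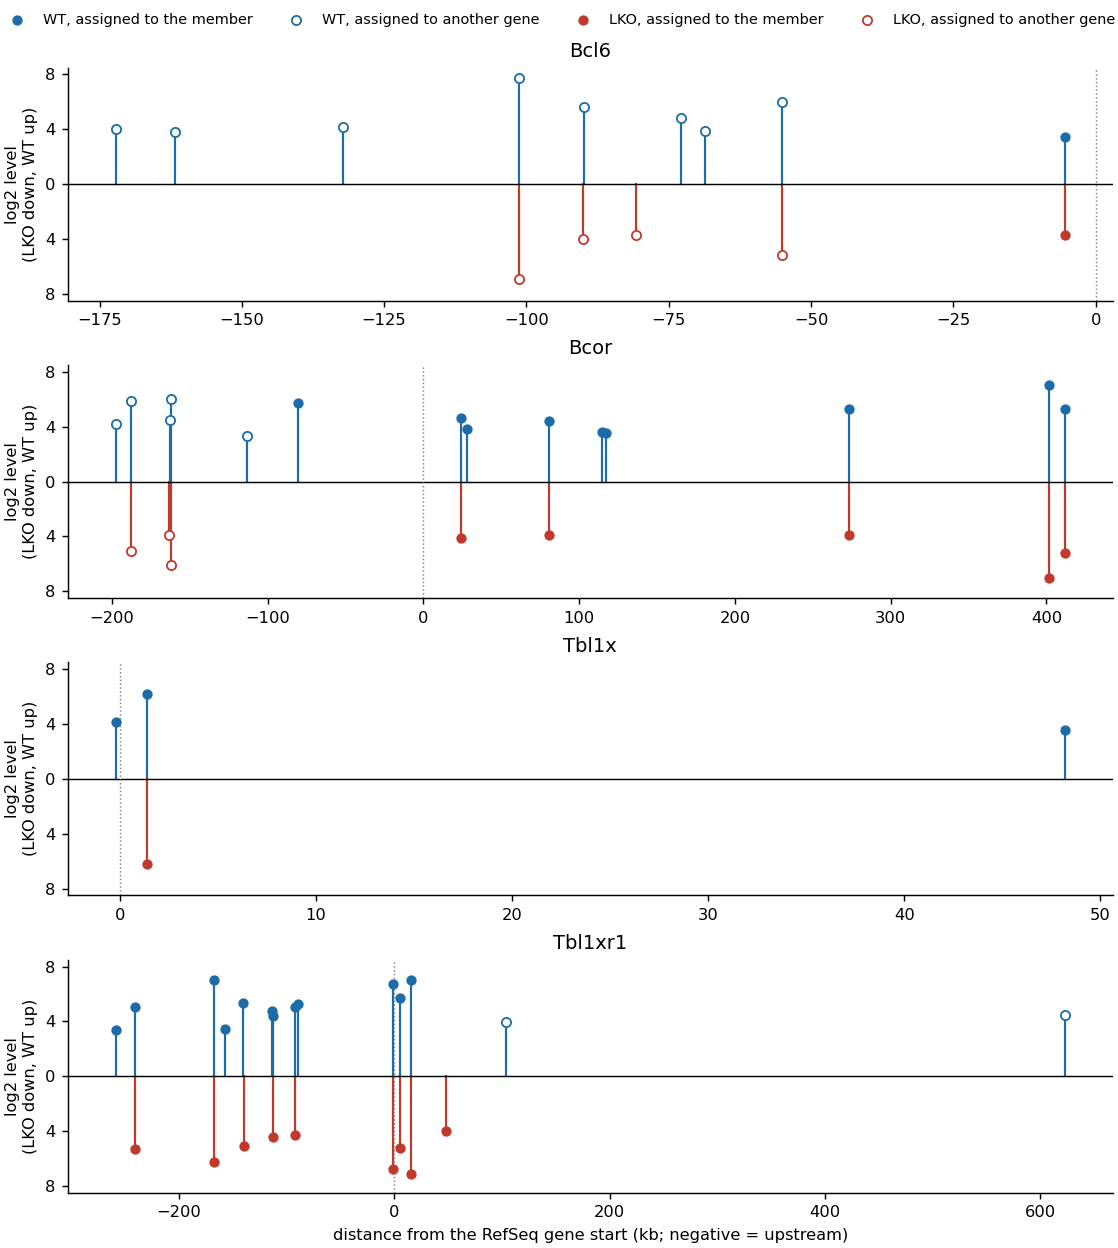
Mean log2 value of the peaks (vertical axis, WT upward and LKO downward) against their distance from the RefSeq gene start in kb, within the stretch of genome nearer to that start than to any other coding gene's. Filled points were assigned to the gene and open points to another gene by the authors. At Bcl6, 8 of 9 WT peaks are open, while at Tbl1xr1 12 of 14 are filled.

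The counts were set beside the length of genome nearest to each start. The Tbl1xr1 stretch spans 2388 kb and is longer than those of 99.9% of coding genes, whose median is 48.8 kb, and the next coding gene to its upstream peaks, Agtr1b, is at least 1450 kb from them. It held 14 WT and 9 LKO peaks, or 5.86 and 3.77 per Mb, which is below the 7.81 and 4.87 per Mb over all coding genes. The Bcor stretch, 630 kb, held 14 and 8, or 22.2 and 12.7 per Mb. The Tbl1x stretch, 307 kb, held 3 and 1, or 9.78 and 3.26 per Mb. Bcl6b, with a stretch of 7.59 kb, held its 1 WT peak. Per Mb, Bcl6 and Bcor were above the value over all genes and Tbl1xr1 below it in both lists.

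Ncor1, the scaffold of the NCoR complex, and Hdac3, its catalytic subunit, had no peak in their bodies or their stretches, which span 88.5 kb and 9.72 kb. Over all coding genes the stretches held 7.81 WT and 4.87 LKO peaks per Mb. That of Ncor1 was longer than 69.2% of them and that of Hdac3 longer than 6.48%. The share of stretches that held no peak was not computed. Within 100 kb of the start lay 7 WT and 2 LKO peaks at Ncor1 and 2 and 0 at Hdac3, all assigned to other genes. The WT peak nearest to the Ncor1 start was 21.7 kb away and assigned to Pigl, with values of 3.11 and 4.66. The nearest LKO peak was 43.3 kb away, assigned to Cenpv, with 5.03 and 4.87. For Hdac3, on chromosome 18, the nearest WT peak was 21.6 kb away, in an intron of Diaph1, with 3.25 and 4.49. The nearest LKO peak was 107 kb away, assigned to Arap3, with 5.77 and 5.05. An absent peak means only that none passed the authors' threshold.

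The comparison of the genotypes asks whether FXR binds the same sites at these genes when hepatocytes lack BCL6. Of the 27 WT member peaks, 15 were overlapped by an LKO peak by at least 1 bp (55.6%, 95% Wilson interval 37.3 to 72.4), against 49.5% of the WT list. Of the 16 LKO member peaks, 15 were overlapped by a WT peak (93.8%, 71.7 to 98.9), against 79.4% of the LKO list. These intervals cover counting error over peaks only, and both contain the share of their whole list. The shared peaks were 8 at Tbl1xr1, 5 at Bcor, 1 at Tbl1x and 1 at Bcl6. Their centres differed by a median of 15 bp and at most 65 bp. Peaks shared between the lists were stronger, with a median WT percentile of 72.4 against 16.7 for the 12 found in WT alone. When the WT list was shortened to its strongest peaks, to the length of the LKO list, 82.4% of its 17 member peaks were overlapped, against 68.3% of the list.

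Levels were set across genotypes by subtracting from each library its own median over the 9918 shared peaks, because the tables were normalized separately. These are called relative levels. No test was run on them, since 2 against 2 libraries cannot give an exact permutation p below 0.333. The median LKO minus WT difference over the 15 member peaks was 0.28 on the log2 scale, against 0.03 over all shared peaks, but it was -0.05 against -0.30 without centring and -0.87 against -1.12 when scaled by library totals. The direction of this difference depends on the scale, while its gap to all shared peaks does not, since a change of scale shifts every peak alike. With means in place of medians the gap was gone (0.06 against 0.07). With 1 library left out the median was 0.15 without WT replicate 1, 0.34 without WT replicate 2, 0.21 without LKO replicate 1 and 0.07 without LKO replicate 2, against 0.01, 0.02, 0.05 and 0.03 over all shared peaks.

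By relative level, both LKO libraries were above both WT libraries at 6 of the 15 member peaks, where 29.8% of all shared peaks were. Both were below at 4 of 15, where 25.2% of all shared peaks were. The values overlapped at the other 5. With WT replicate 2 left out, both LKO libraries were above WT replicate 1 at 10 of 15 peaks (41.1% of all shared peaks) and below it at 4 of 15 (35.3%). Bcor and Tbl1xr1 each had peaks of both kinds.

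The Bcl6 peak had the highest difference with all 4 libraries, but not with WT replicate 2 left out (0.42, against 0.93 at a Tbl1xr1 peak) or LKO replicate 1 left out (0.44, against 0.69 at another). In WT replicate 2 it held an estimated 3.35 tags. It lay at -1.65 and -2.05 in WT and -1.05 and -1.41 in LKO by relative level, a mean of -1.85 ± 0.28 against -1.23 ± 0.25 (SD, n = 2). The difference of 0.62 exceeded the pooled SD of 0.27, and it was 0.29 without centring and -0.52 scaled by library totals. Its direction by relative level was fixed in advance. The weakest peak of the LKO list had a mean of 3.29, where the LKO shared-peak medians were 5.04 and 4.85. Any LKO peak paired with the Bcl6 peak would thus have a mean relative level above -1.85. At the other end of the differences was a Bcor peak 193 kb beyond the assigned start, at -0.24 and 0.23 in WT and -1.02 ± 0.03 in LKO (SD, n = 2), a difference of -1.02. The Tbl1xr1 peak 168 kb upstream was lower in LKO, at 1.76 ± 0.08 in WT and 1.30 ± 0.23 in LKO. The intron 1 peak of Tbl1xr1 was higher, at 1.77 ± 0.36 in WT and 2.20 ± 0.12 in LKO. The promoter peak of Tbl1x, at 0.91 ± 0.02 and 1.24 ± 0.19, and the peak 1.46 kb upstream of Tbl1xr1, at 1.49 ± 0.06 and 1.80 ± 0.15, were higher too. The difference exceeded the pooled SD upward at 7 of the 15 peaks, where 33.7% of all shared peaks did, and downward at 4, where 29.4% did.

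The shared peaks upstream of Bcl6 that were assigned to Gm46545 are given as a description, since they were picked out after their values were seen. By relative level, both LKO libraries were below both WT libraries at 3 of 3, as at 25.2% of all shared peaks. The strongest, 101 kb upstream, was at 2.44 ± 0.20 in WT and 2.01 ± 0.13 in LKO (SD, n = 2). That 89.97 kb upstream was at 0.33 ± 0.25 and -0.95 ± 0.21, and that 55.1 kb upstream at 0.72 ± 0.38 and 0.26 ± 0.13. In the whole stretch 4 of 9 WT and 4 of 5 LKO peaks were overlapped by a peak of the other list, where 49.5% and 79.4% of the lists were.

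**Figure D3:**
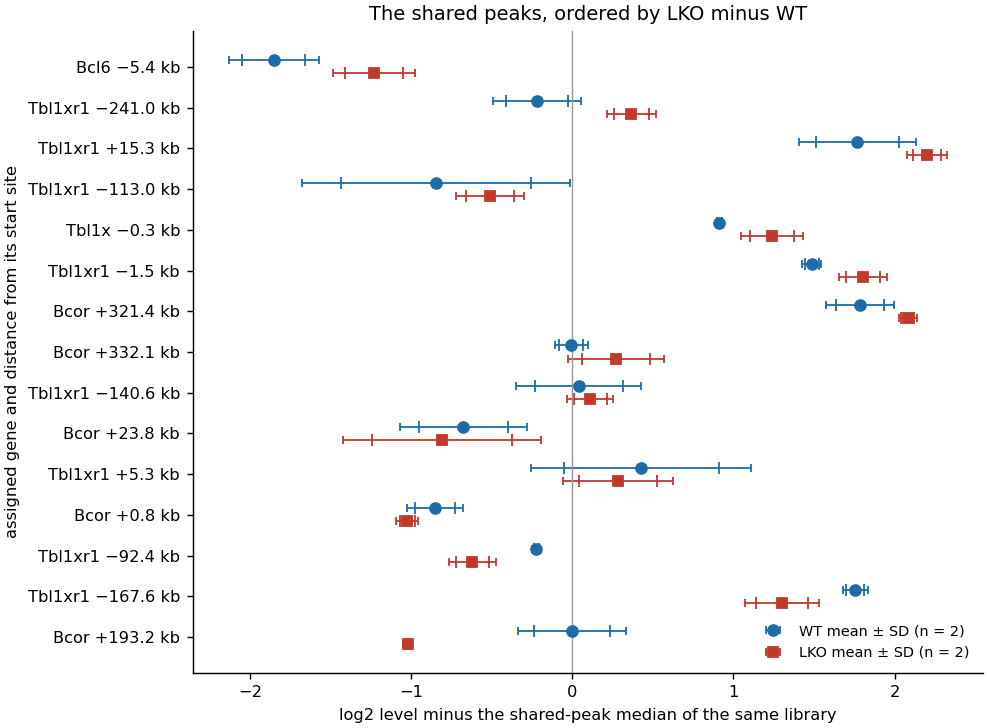
Relative level, which is the log2 value minus the library's median over shared peaks (horizontal axis), for the 15 shared member peaks (vertical axis), ordered by LKO minus WT. Large symbols with bars are mean ± SD of 2 libraries, blue circles WT and red squares LKO, and small ticks are the libraries. The Bcl6 peak at the top differs by 0.62 and the Bcor peak 193 kb beyond the assigned start at the bottom by -1.02. The direction at Bcl6 was fixed in advance, since even the weakest LKO peaks lie above its WT mean by relative level.

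IR1 matches were found at 5 of the 27 WT member peaks (18.5%, 95% Wilson interval 8.18 to 36.7), against 11.8% of the WT list. They were found at 5 of the 16 LKO member peaks (31.3%, 14.2 to 55.6), against 16.2% of the LKO list. Both intervals contain the share of the list. In windows of the same size 2 kb to either side, matches were found at 0.896% around WT peaks and 0.976% around LKO peaks. The 5 matches were the same bases in both lists, 3 at Tbl1xr1, 1 at Tbl1x and 1 at Bcor, and each belonged to a shared peak. At all 15 shared peaks the closest match was the same stretch of bases in both lists. Such sameness follows largely from the pairing, since windows around overlapping peaks cover mostly the same genome sequence. No member peak had a match with 1 mismatch or fewer. The strongest Bcor peak had 3 mismatches, 5 bp from its centre, and the strong Tbl1xr1 peak 168 kb upstream had 4.

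**Figure D4:**
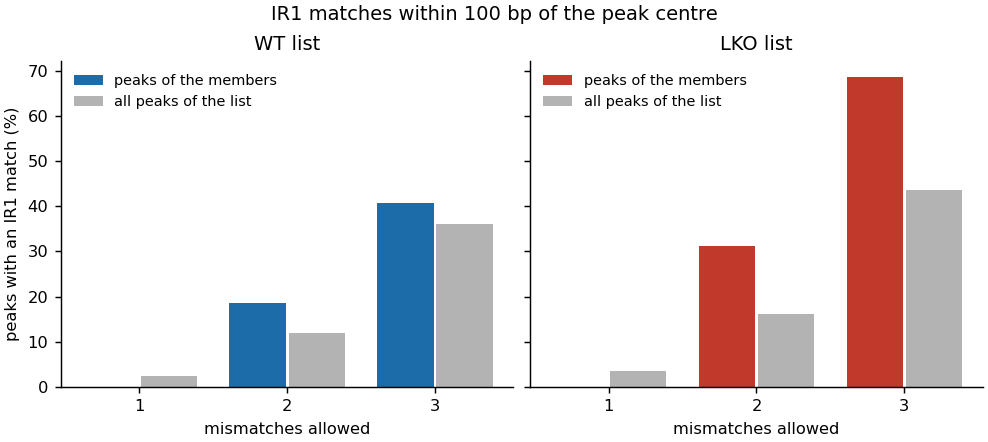
Percent of peaks with an IR1 match within 100 bp of the centre (vertical axis) when 1, 2 or 3 mismatches are allowed (horizontal axis), for the WT list on the left and the LKO list on the right. Coloured bars are the member peaks and grey bars all peaks of the list. With 2 mismatches the members reach 18.5% in WT and 31.3% in LKO, and with 1 mismatch they are at 0.

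The motif of BCL6 was searched as TTCCTAGAA with at most 1 mismatch on either strand. It was found at 0 of the 27 WT and 0 of the 16 LKO member peaks, which allows shares of up to 11.1% and 18.8%. In the lists 5.78% of WT and 5.45% of LKO peaks held it, below the 7.10% and 6.999% of windows 2 kb away. RefSeq promoter sequences around the start were given for 5 of the 7 genes, 8 in all. Bcl6, Bcor and Ncor1 had more than 1 each, and those of Bcor were almost the same bases. The sequences were longer than the windows searched at peaks. Of the 8 promoters 2 held the BCL6 motif, 1 at Ncor1 with no mismatch and 1 at Bcl6 with 1, against 8.63% of 32851 promoters. None of the 8 held an IR1 match, against 1.14%. A match of letters in these windows does not show that the factor binds there.

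Other genes of the BCOR complex, other histone deacetylases and NuRD, CtBP and SIN3 partners were looked up from a list of 33. Of these, 11 had a WT peak and 11 an LKO peak, where 34.4% and 26.3% of all protein-coding genes had one. A shared peak was found at 7, and no share over all genes was computed for this. They had 20 WT and 20 LKO peaks in all, from lists of 20040 and 12495. Of the 20 WT peaks 13 were shared, against 49.5% of the WT list. Rybp, a subunit of the BCOR complex, had the most, with 7 WT and 5 LKO peaks, and 5 of its WT peaks were shared. The strongest in WT was in intron 3 of Hdac11, a histone deacetylase, with 6.34 and 6.94. The strongest in LKO was at Gatad2a, a NuRD subunit, 0.228 kb from the start, with 7.14 and 7.10, and no WT peak was assigned to this gene. Its LKO input of 5.21 was far above the 95th percentile of input in that list (2.49), and the part of the input in this peak was not tested. By group, 4 of 9 genes of the BCOR complex, 4 of 10 other histone deacetylases and 3 of 14 NuRD, CtBP and SIN3 partners had a WT peak. The LKO counts were 3, 4 and 4.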

How the data were processed

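Per the labels, the authors aligned reads to mm10 with Bowtie 1.2 and processed them with HOMER 4.10. Per the file headers, both ChIP libraries were pooled within a genotype, factor-style peaks were called with HOMER over the matching input, and DESeq2 then compared ChIP with input, keeping an adjusted p under 0.05. The deposited log2 values are the regularized log2 tags of that run, read as such because they are not whole and some are negative. The deposited Peak Score is a signal, pooled tags per 10000000. The authors' fold changes and p-values of ChIP against input were not used. Tags were estimated from the log2 values and library totals, at a median of 0.903 (WT) and 0.959 (LKO) of the score. Members, lists and settings were chosen with earlier results of these data known. Values are given in every library for the shared Bcl6 peak, the strongest WT and LKO peak of each other member, the strongest peak in 1 list only, and peaks within 1 kb of a start. Of the listed genes, that with most peaks and that with the strongest peak are named. All 32535 peaks lay inside the chromosomes of GRCm38.p6. Peak coordinates count from 1. Overlap and motif code was tested on simulated data. Figures were drawn with matplotlib 3.10.9, and the rest ran in Python 3.11.15 with SciPy 1.17.1, pandas 2.3.3 and NumPy 2.4.6. Other overlaps, filters, scales, mismatches and left-out replicates were tried. Some of the listed genes are not reported here.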

Additional observations from a re-analysis of the deposited data

How the results depend on the processing

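Keeping peaks at or above the median strength left 15 WT and 9 LKO member peaks, and keeping those within 100 kb of the assigned start left 16 and 9. Requiring 10 estimated tags in both replicates left 14 WT peaks and all 16 LKO peaks. Assigning peaks to the nearest RefSeq coding start, an alternative chosen after seeing the data, gave 41 WT and 23 LKO peaks. The share of WT member peaks overlapped by an LKO peak was 82.4% in lists of the same length. Without peaks of high input it was 41.7% (46.1% of the list) and, from the LKO side, 76.9% (73.9%), within the intervals of the values reported. With at most 1 mismatch the IR1 share was 0% in both lists (2.46% and 3.55% of all peaks), and 3 mismatches gave 40.7% of WT and 68.8% of LKO member peaks (36.0% and 43.6% of all). The median level difference was -0.052 without centring, -0.20 relative to all peaks of each list and -0.87 scaled by library totals. It was 0.07 to 0.34 with 1 replicate left out, and 0.25 from pooled scores, chosen after seeing the data. Scaled by library totals, all 15 shared peaks were lower in LKO, and without centring 11 were. No paired analysis was made because the labels state no pairing of the libraries. WT replicate 2 was the shallowest ChIP library, with 2883717 tags.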
